A study of Mus musculus with 9 samples.

Results

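The Hox genes encode homeodomain transcription factors and lie in 4 clusters of the mouse genome, HoxA to HoxD. Members were all genes of the deposited table whose symbol is Hox followed by the letter of a cluster and a number, with antisense and other noncoding transcripts of the clusters left out. These were 9 of 2462 genes, and 8 are described: Hoxa4 and Hoxa11 of HoxA, Hoxb2, Hoxb3, Hoxb4 and Hoxb5 of HoxB, and Hoxd3 and Hoxd4 of HoxD. RefSeq names 39 Hox genes in the mouse, and the other genes of the clusters, with all 9 of HoxC, were not analysed here. With the exception of Hoxa11, the genes described belong to the 3′ side of their clusters, the side of the low paralogue numbers.

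In the embryo the order of Hox genes along a cluster matches the order of their expression along the body axis, with the genes of low number reaching furthest forward. Their proteins bind DNA together with cofactors of the Pbx and Meis families, their chromatin is held silent or active by Polycomb and Trithorax proteins, and retinoic acid activates genes at the 3′ ends of the clusters. In the male tract Hox genes pattern the duct that becomes epididymis and vas deferens, and adult tissues go on expressing part of the set.

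Messenger RNA was sequenced from the caput, the head region of the epididymis, where sperm leaving the testis begin to mature, of mice aged 14 weeks. WT is the group of wild-type genotype with no treatment, EDL is of wild-type genotype with ligated efferent ducts, which keeps fluid and sperm of the testis out of the epididymis, and W/Wv is of the W/Wv genotype with no treatment, 3 libraries each. W/Wv mice carry 2 mutant alleles of the receptor gene Kit in every cell, and their testes hold almost no germ cells. The labels name no sham operation, side or time since ligation, and no strain, so the operation and the block cannot be told apart. Separate animals are not stated for libraries of 1 group, so p-values cover the library-to-library spread, which may be technical.

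The libraries held 3536245 to 4793224 reads in the table, of which the 5 most abundant genes took 29.3% to 33.5%. The selection of the 2462 genes is not given in the sources used, and most of those tested differed from WT, so each count of Hox genes below stands beside the share of all tested genes. The tissue label was checked on principal cell markers, of which 8 of 13 could be read, with a summed level of 46165 to 53199 FPKM in WT, 36990 to 39281 in EDL and 32364 to 34443 in W/Wv. These markers went different ways: against WT 2 were higher and 4 lower in EDL, and 2 higher and 5 lower in W/Wv. Lcn8, Cst8 and Crisp1 had 17981, 2557 and 1498 FPKM in WT and 3.66, 1.11 and 1.78 in EDL, while Gpx5, which makes up most of the sum, had 26828 and 26326. FPKM is a read density scaled by transcript length and sequencing depth. Of 11 germ cell and sperm markers 9 could be read. Their summed level was 138.1 to 144.8 FPKM in WT, 14.6 to 15.98 in EDL and 14.2 to 15.8 in W/Wv. Odf2, named because it made up most of the EDL and W/Wv sums, had means of 16.5 FPKM in WT, 13.4 in EDL and 12.6 in W/Wv. Tnp2, Smcp and Akap4 had 0 reads in every EDL and W/Wv library. WT library 3 stood apart from the other WT libraries in Lcn5, a lipocalin of principal cells, with 1613 FPKM against 308 and 186. Of the adipocyte and nerve lists 1 of 6 markers each could be read. Plin4 of adipocytes had 5.65 to 6.91 FPKM in WT, 12.4 to 14.0 in EDL and 10.8 to 13.3 in W/Wv, and Uchl1 of nerve had 42.7 to 48.1, 5.53 to 5.61 and 6.79 to 7.24 FPKM. No marker of the lists for basal cells, clear or narrow cells, smooth muscle, fibroblasts, endothelium, myeloid cells or lymphocytes was analysed here. The part of cell makeup in the results was not tested, and in whole tissue fewer cells of a type and less RNA per cell cannot be told apart.

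Of the 8 Hox genes described, Hoxd4 had the highest FPKM in every library, and with Hoxd3 it made up 47.2% to 51.1% of the summed FPKM of the 8 genes in WT, 60.7% to 60.97% in EDL and 55.0% to 56.5% in W/Wv. In WT, Hoxb2, Hoxb3, Hoxd3, Hoxb5 and Hoxb4 followed at means of 24.6 to 9.35 FPKM, then Hoxa4 at 1.88 FPKM, and Hoxa11 lay below 1 FPKM. The ranges of Hoxd3 and Hoxb5 overlapped in WT, while all other neighbours in that order were separate. In EDL, Hoxd3 was second with 32.4 FPKM and Hoxb4 stood above Hoxb5, and no neighbours in the order overlapped. In W/Wv, Hoxd3 was also second with 23.8 FPKM, Hoxb2 and Hoxb3 overlapped, and Hoxb5 stood above Hoxb4 as in WT. The sum of the 8 genes was 128.6 to 146.7 FPKM in WT, 211.1 to 212.8 in EDL and 153.9 to 164.02 in W/Wv, so the groups did not overlap.

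**Figure D1:**
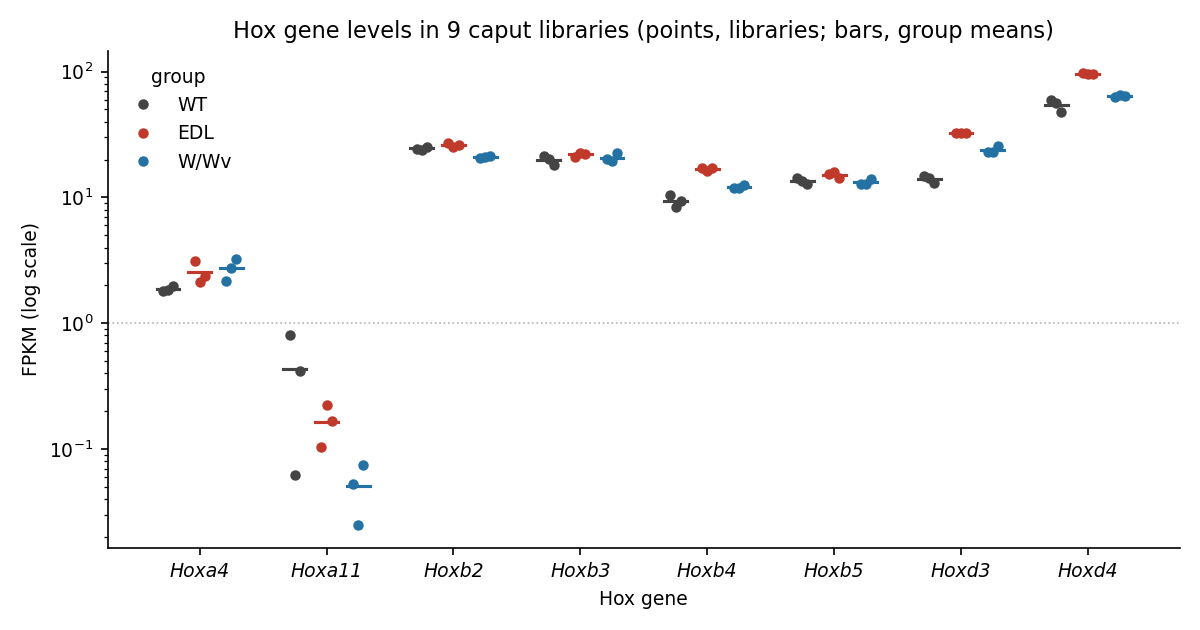
FPKM on a log axis (vertical) of the 8 Hox genes described (horizontal) in the WT, EDL and W/Wv caput, with a point per library, a bar per group mean and a dotted line at 1 FPKM. Hoxd4 is highest at 47.5 to 96.8 FPKM, and the EDL points of Hoxd3, Hoxd4 and Hoxb4 lie above all WT and W/Wv points.

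The tests used limma on log2(FPKM + 1) over the 2013 genes that reached 1 FPKM in 3 or more libraries, with Benjamini-Hochberg adjustment over those genes and a threshold of 0.05. Of the 8 Hox genes described 7 passed this filter. All 7 had more than 1 FPKM in each of the 9 libraries, so none entered through 1 group alone, and Hoxa11 was left out for low values. Levels below are FPKM, and changes are differences on the log2(FPKM + 1) scale with their standard error (SE) and, where given, 95% interval. Comparisons of EDL and of W/Wv with WT share the 3 WT libraries, and the difference between the models was tested directly as W/Wv against EDL.

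In the ligated caput the 2 HoxD genes and Hoxb4 were higher than in the intact caput, in W/Wv they were higher by less, and the direct comparison put W/Wv below EDL for all 3. In EDL against WT, 5 of 7 Hox genes passed the test, all higher, where 75.3% of all tested genes passed, 39.4% as higher and 35.9% as lower. That count was 3 without WT library 2, WT library 3 or EDL library 1, with median-ratio scaling, with the replicate block and with edgeR or DESeq2 on recovered reads, and 7 with quantile scaling. In W/Wv against WT, 5 of 7 passed, 4 higher and Hoxb2 lower, where 70.3% of all tested genes passed, 35.3% as higher and 35% as lower. In W/Wv against EDL, 4 of 7 passed, all lower, where 14% of all tested genes passed, 6.95% as higher and 7% as lower. The counts against WT are thus near the background of the table. The median change of the 7 Hox genes was 0.29 in EDL against WT, 0.24 in W/Wv against WT and -0.30 in W/Wv against EDL, beside medians of 0.05, 0.02 and 0.00 over all tested genes.

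**Figure D2:**
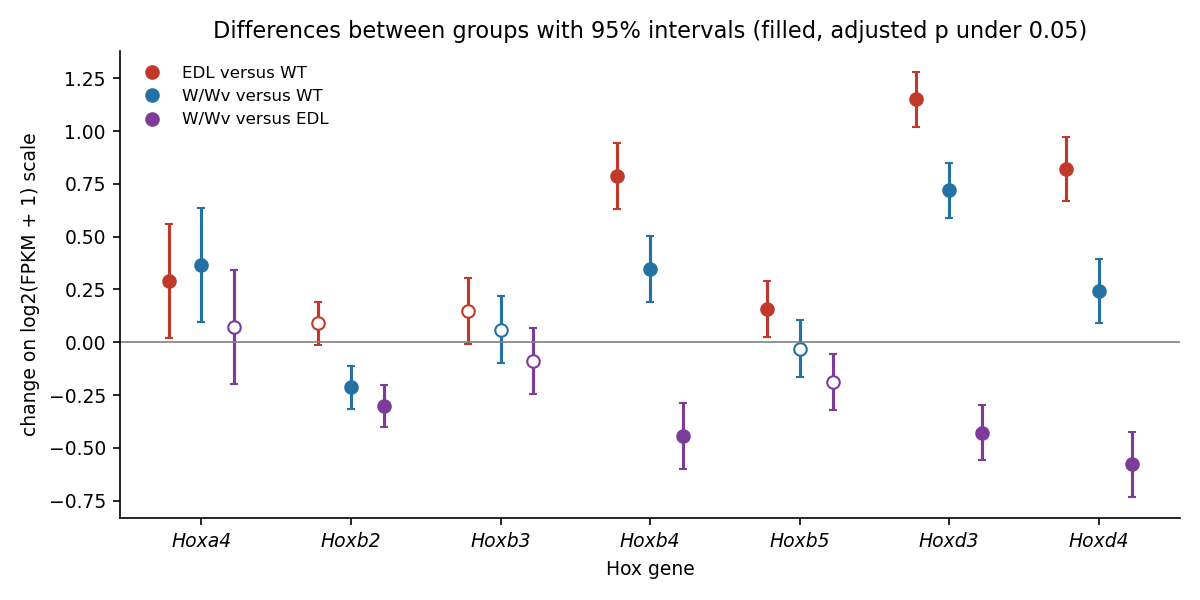
Change on the log2(FPKM + 1) scale (vertical) of the 7 tested Hox genes (horizontal) in EDL against WT, W/Wv against WT and W/Wv against EDL, as points with 95% intervals, filled where the adjusted p was under 0.05. Hoxd3, Hoxd4 and Hoxb4 are filled in all 3 comparisons, positive against WT and negative for W/Wv against EDL.

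The HoxD genes are described first. Hoxd3 and Hoxd4 pattern the neck vertebrae and hindbrain in the embryo and lie on the plus strand of chromosome 2. In RefSeq GRCm38.p6, the assembly that mm10 names, Hoxd4 (gene ID 15436, chr2:74721978-74729160) lies wholly inside the span of Hoxd3 (gene ID 15434, chr2:74711993-74748271). The 300 bases around the RefSeq start of both genes, and of Hoxb4, are shown because these are the 3 genes that passed in every comparison. Each runs 5′ to 3′ on the plus strand from 250 bases before the start to 50 after it, and capitals mark the letters AGGTCA on either strand, the half-site of retinoic acid receptors and other nuclear receptors.
Hoxd3, chr2:74711743-74712042: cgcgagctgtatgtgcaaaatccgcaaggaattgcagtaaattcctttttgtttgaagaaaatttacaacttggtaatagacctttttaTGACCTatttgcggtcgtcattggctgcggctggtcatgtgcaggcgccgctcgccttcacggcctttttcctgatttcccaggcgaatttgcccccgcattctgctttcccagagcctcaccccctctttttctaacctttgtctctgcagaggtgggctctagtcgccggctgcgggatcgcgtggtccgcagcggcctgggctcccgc
Hoxd4, chr2:74721728-74722027: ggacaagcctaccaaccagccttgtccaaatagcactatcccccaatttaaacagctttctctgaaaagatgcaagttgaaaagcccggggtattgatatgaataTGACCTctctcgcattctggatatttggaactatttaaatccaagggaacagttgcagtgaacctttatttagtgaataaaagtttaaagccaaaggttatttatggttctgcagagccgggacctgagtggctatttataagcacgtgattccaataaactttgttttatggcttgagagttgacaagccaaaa
Hoxb4, chr11:96318017-96318316: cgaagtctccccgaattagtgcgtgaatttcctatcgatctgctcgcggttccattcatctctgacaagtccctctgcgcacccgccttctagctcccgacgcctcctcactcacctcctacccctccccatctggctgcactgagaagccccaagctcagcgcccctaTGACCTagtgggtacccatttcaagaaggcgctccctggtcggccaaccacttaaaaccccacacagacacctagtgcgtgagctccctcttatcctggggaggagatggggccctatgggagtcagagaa

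The RefSeq table held promoters of 4 of the 8 Hox genes described, the fourth being Hoxa11. AGGTCA was in 3 of these 4 and in 16.3% of all 32851 promoters of the same length. Its last base lay 155 bases before the start in Hoxd3, 139 in Hoxd4 and 75 in Hoxb4. In all 3 the match was part of the letters TATGACCT, a longer run chosen after the sequences had been read, which was in 0.724% of all promoters. TAAT, the core of homeodomain sites, was in the windows of Hoxd3 and Hoxb4 and in 58.0% of all promoters, and TGATNNAT, a joint site of Pbx and Hox proteins, was in none of the 3 windows and in 8.85% of all. The letters AGAACA, a half-site of the androgen receptor, were also in none of the 3 and in 18.97% of all promoters. CCAAT was in the windows of Hoxd3 and Hoxd4 and in 37.4% of all, and TATAAA was in that of Hoxd4 and in 13.6% of all. The Hoxd4 window was poorer in G and C, at 39.7%, than those of Hoxd3 (54%) and Hoxb4 (58%), beside a median of 52.7% over all promoters. All 6 motifs were searched on both strands, and TATGACCT overlaps AGGTCA by construction. A match is a description of letters, and binding was not measured. In GENCODE M21 the Hoxd3 window lies at the first exon of transcript Hoxd3-203. The first exons of its other coding transcripts begin 20.9 to 33.7 kb past the RefSeq start. On the same scale, Hoxd4-201, at whose start the Hoxd4 window lies, begins at 9.985 kb and Hoxd4-202 at 15.1 kb. Which of these starts the caput used was not measured.

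Hoxd3 had 14.8, 14.3 and 13.1 FPKM in the 3 WT libraries, 32.3, 32.2 and 32.7 in EDL, and 22.8, 23.0 and 25.7 in W/Wv. All EDL libraries lay above all W/Wv libraries, and these above all WT libraries. The EDL mean was 32.4 ± 0.231 FPKM against 14.1 ± 0.852 in WT (SD, n = 3 each), 2.30-fold higher, a change of 1.15 (SE 0.06, interval 1.02 to 1.28, limma adjusted p = 1.2e-08). Of all tested genes, 108 had a larger positive change than Hoxd3. The W/Wv mean of 23.8 ± 1.62 FPKM was 1.69-fold that of WT, a change of 0.72 (SE 0.06, limma adjusted p = 5.8e-07). W/Wv was 26.4% below EDL, a change of -0.43 (SE 0.06, interval -0.56 to -0.30, limma adjusted p = 0.00079), and Hoxd3 thus had an intermediate level in W/Wv.

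Hoxd4 had 59.1, 56.6 and 47.5 FPKM in WT, 96.8, 96.3 and 96.0 in EDL, and 63.3, 65.0 and 64.5 in W/Wv. The groups did not overlap, W/Wv lay nearer to WT than to EDL, and the lowest value was that of WT library 3. EDL was 1.77-fold higher than WT, a change of 0.82 (SE 0.07, interval 0.67 to 0.97, limma adjusted p = 7.4e-07). W/Wv was 1.18-fold higher than WT, a change of 0.24 (SE 0.07, limma adjusted p = 0.0086), which was 0.15 without WT library 3 (adjusted p = 0.0098) and 0.53 with quantile scaling. Between the models W/Wv was 33.3% lower, with 64.3 ± 0.907 against 96.4 ± 0.402 FPKM, a change of -0.58 (SE 0.07, interval -0.73 to -0.42, limma adjusted p = 0.00034). Of the 2013 tested genes 34 had a lower change than Hoxd4 in that comparison, 60 had a lower one than Hoxb4 and 68 than Hoxd3.

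**Figure D3:**
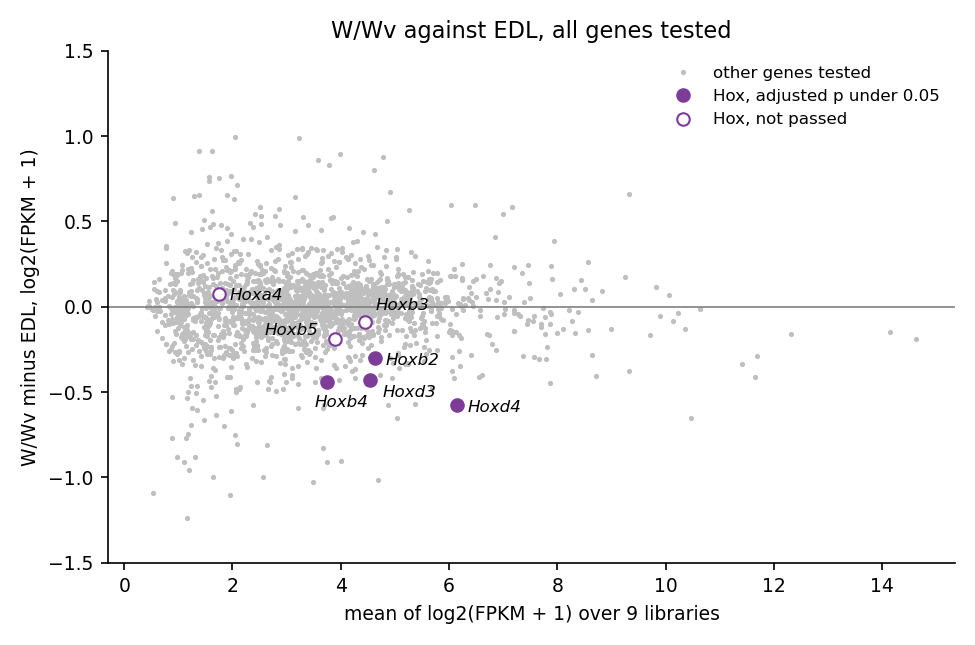
Change of W/Wv against EDL (vertical, log2(FPKM + 1) scale) over the mean of log2(FPKM + 1) in 9 libraries (horizontal), with a grey dot for each tested gene and the 7 Hox genes marked, filled where the adjusted p was under 0.05. Hoxd4, Hoxb4, Hoxd3 and Hoxb2 lie in the lower part of the cloud at -0.58 to -0.30, and 7 genes beyond 1.5 in either direction are off the axis.

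In the ratio of Hoxd3 to Hoxd4 within a library a scaling factor common to all genes of that library cancels. The ratio was 0.2496, 0.253 and 0.276 in WT, 0.333, 0.335 and 0.340 in EDL, and 0.360, 0.354 and 0.398 in W/Wv. The 3 groups did not overlap: Hoxd3 had the smallest share of the pair in WT and the largest in W/Wv. Over 12 such ratio tests of 4 neighbouring pairs in 3 comparisons, each of these 3 had a two-sided exact permutation p of 0.1, the smallest that 3 against 3 libraries allow (adjusted 0.133), so no ratio could pass the threshold. Quantile scaling is not a common factor, and it narrowed the gap between the pair: against WT the changes were then 1.249 for Hoxd3 and 1.05 for Hoxd4 in EDL, and 0.79 and 0.53 in W/Wv.

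Reads of the 2 genes cannot be assigned with certainty. In GENCODE M21 their exons share 388 bases on the same strand, 9.26% of the exonic bases of Hoxd3 and 13.2% of those of Hoxd4. A readthrough gene, Gm28230, not analysed here, shares 2225 bases with Hoxd3 (53.1%) and 1154 with Hoxd4 (39.1%). GENCODE gives 5 coding transcripts of Hoxd3 with different first exons and 2 of Hoxd4. The antisense gene Hoxd3os1 covers 347 exonic bases of each. The library kit marks the strand, but the sources used here do not say whether counting used it, and how shared reads were split is unknown.

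**Figure D4:**
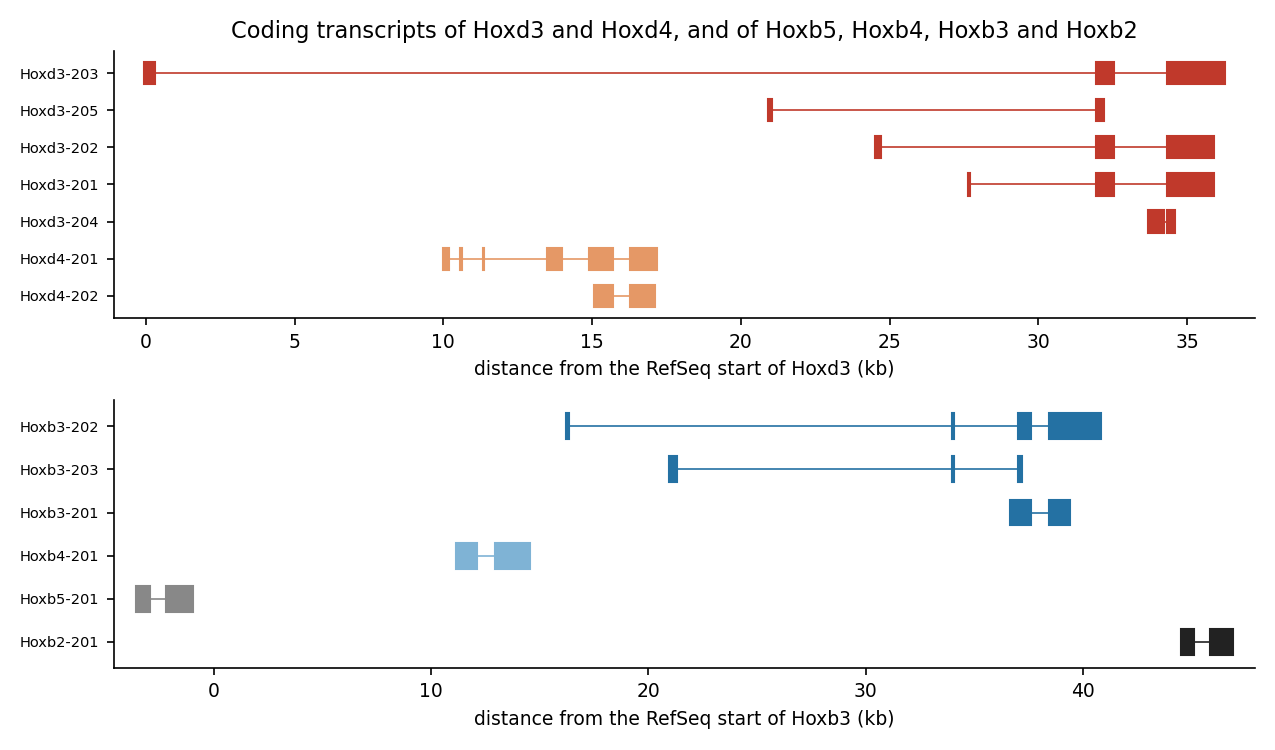
Coding transcripts of GENCODE M21 at the Hoxd3 locus (upper panel) and the Hoxb3 locus (lower panel), with exons as boxes, introns as lines and the distance from the RefSeq start of Hoxd3 or Hoxb3 in kb (horizontal); all run left to right. Hoxd4 lies between the outer exons of Hoxd3. Hoxb4, at 11.2 to 14.5 kb, lies inside the RefSeq span of Hoxb3 but before the first Hoxb3 exon drawn, at 16.2 kb.

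Both nested pairs also hold a microRNA gene of the miR-10 family, printed because its members mark the equivalent place in the HoxB and HoxD clusters. The mature forms are given 5′ to 3′ from RefSeq GRCm38.p6 with bases 2 to 8, the seed, in capitals.
mmu-miR-10b-5p, chr2:74726074-74726096, plus strand: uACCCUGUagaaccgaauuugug
mmu-miR-10a-5p, chr11:96317186-96317208, plus strand: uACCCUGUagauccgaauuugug

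The seeds are the same, and the mature forms differ by U12A, the base of miR-10a-5p given first and positions counted from the 5′ end. Mir10b lies inside the spans of Hoxd3 and Hoxd4, and Mir10a inside the span of Hoxb3, where its hairpin ends 993 bases before the start of Hoxb4. MicroRNAs were not measured in these mRNA libraries.

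The HoxB genes lie on the plus strand of chromosome 11. Hoxb4 (gene ID 15412, chr11:96318267-96321638), known for expanding blood stem cells, lies inside the span of Hoxb3 (gene ID 15410, chr11:96307101-96347930), but their exons share 0 bases. Hoxb4 had 10.4, 8.34 and 9.34 FPKM in WT, 17.2, 16.2 and 17.1 in EDL, and 11.9, 11.9 and 12.6 in W/Wv. EDL was highest, W/Wv lay between, and the groups did not overlap. EDL was 1.80-fold higher than WT with 16.8 ± 0.535 against 9.35 ± 1.02 FPKM, a change of 0.79 (SE 0.07, interval 0.63 to 0.94, limma adjusted p = 1.2e-06). W/Wv was 1.30-fold higher than WT, a change of 0.35 (SE 0.07, limma adjusted p = 0.00098). Against EDL, W/Wv was 28.0% lower, a change of -0.44 (SE 0.07, interval -0.60 to -0.29, limma adjusted p = 0.0019).

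Hoxb3, a hindbrain patterning gene, passed in no comparison. Its values were 21.356, 20.032 and 18.001 FPKM in WT, 21.007, 22.720 and 22.260 in EDL, and 20.149, 19.299 and 22.495 in W/Wv. The ranges of all 3 groups overlapped. Its change was 0.15 in EDL against WT (interval -0.01 to 0.31, limma adjusted p = 0.082), 0.06 in W/Wv against WT (interval -0.10 to 0.22, adjusted p = 0.49) and -0.09 in W/Wv against EDL (interval -0.25 to 0.07, adjusted p = 0.46). The antisense gene Hoxb3os, not analysed here, covers 2250 exonic bases of Hoxb3 (52.9%).

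The ratio of Hoxb4 to Hoxb3 within a library was 0.486, 0.416 and 0.519 in WT, 0.818, 0.714 and 0.767 in EDL, and 0.589, 0.616 and 0.560 in W/Wv. The groups again did not overlap, here with EDL highest and W/Wv between. Each of the 3 comparisons had a two-sided exact permutation p of 0.1, the smallest possible (adjusted 0.133 over the 12 ratio tests). The ratio of Hoxb5 to Hoxb3, with means of 0.683 in WT, 0.690 in EDL and 0.640 in W/Wv, overlapped between WT and EDL and between EDL and W/Wv. It was lower in every W/Wv library than in all WT libraries (exact permutation p = 0.1, the smallest possible). The ratio of Hoxb2 to Hoxb3, with means of 1.249 in WT, 1.19 in EDL and 1.02 in W/Wv, was lower in every W/Wv library than in all WT and EDL libraries (exact permutation p = 0.1, the smallest possible, for each) and overlapped between WT and EDL (exact permutation p = 0.6).

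**Figure D5:**
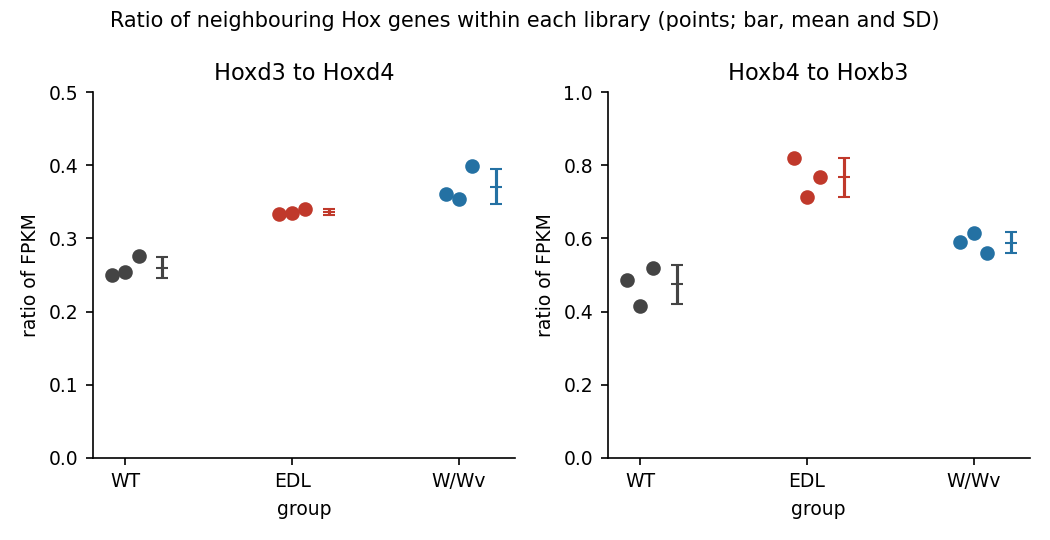
Ratio of FPKM within each library (vertical) for Hoxd3 to Hoxd4 (left) and Hoxb4 to Hoxb3 (right) by group (horizontal), with a point per library and the mean and SD (n = 3) beside it. The ratio of Hoxd3 to Hoxd4 is highest in W/Wv (mean 0.371), and that of Hoxb4 to Hoxb3 is highest in EDL (mean 0.767).

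Hoxb2 (gene ID 103889, chr11:96351632-96354020), which acts in the hindbrain and facial nerve, was the only 1 of the 7 tested Hox genes that passed as lower than WT. It had 24.3, 24.0 and 25.4 FPKM in WT, 27.0, 25.4 and 26.1 in EDL, and 20.8, 20.9 and 21.4 in W/Wv. All W/Wv libraries lay below all others, and WT and EDL met at 25.4. W/Wv was 14.4% below WT, a change of -0.21 (SE 0.05, interval -0.31 to -0.11, limma adjusted p = 0.0013), and 19.7% below EDL, a change of -0.30 (SE 0.05, limma adjusted p = 0.0014). The first of these calls was lost with quantile scaling, at -0.10 (adjusted p = 0.077), where the median change of all genes was 0.11 in place of 0.02. In EDL against WT the change was 0.09 (interval -0.01 to 0.19, limma adjusted p = 0.097).

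Hoxb5 (gene ID 15413, chr11:96303512-96306121), which takes part in lung and gut development, had 14.2, 13.5 and 12.8 FPKM in WT, 15.2, 15.9 and 14.3 in EDL, and 12.8, 12.8 and 14.0 in W/Wv. EDL lay just above both other groups, which overlapped. EDL was 1.12-fold higher than WT, a change of 0.16 (SE 0.06, limma adjusted p = 0.034). This call was lost in 9 of 20 alternatives, among them edgeR and DESeq2 on recovered reads and leaving out WT library 2 or 3 or EDL library 1 or 2, with an adjusted p of up to 0.22. The change in W/Wv against EDL was -0.19 (interval -0.32 to -0.05, limma adjusted p = 0.064), and in W/Wv against WT it was -0.03 (adjusted p = 0.68). The summed FPKM of the 4 HoxB genes was 65.5 to 70.2 in WT, 79.8 to 80.4 in EDL and 64.9 to 70.4 in W/Wv, so EDL stood above the other groups, which overlapped.

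The HoxA genes lie on the minus strand of chromosome 6 and were the lowest of the set. Hoxa4 (gene ID 15401, chr6:52189682-52191703), a patterning gene of the vertebral column, had 1.81, 1.85 and 1.98 FPKM in WT, 3.12, 2.15 and 2.38 in EDL, and 2.17, 2.77 and 3.27 in W/Wv. Both other groups lay above WT and overlapped each other. EDL was 1.35-fold higher than WT, a change of 0.29 (SE 0.12, limma adjusted p = 0.049), and W/Wv 1.45-fold higher, a change of 0.36 (SE 0.12, limma adjusted p = 0.019). The first call was lost in 12 of 19 alternatives, and without EDL library 1 the change was 0.18 (adjusted p = 0.21). The second was lost without W/Wv library 3 (adjusted p = 0.087). Between the models the change was 0.07 (interval -0.20 to 0.34, limma adjusted p = 0.76).

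Hoxa11 (gene ID 15396, chr6:52242105-52245810) is a posterior gene that separates vas deferens from epididymis in the mouse. It had 33, 3 and 15 reads in WT, 5, 9 and 8 in EDL, and 2, 1 and 3 in W/Wv, or 0.809, 0.062 and 0.419 FPKM, then 0.103, 0.223 and 0.166, and 0.0531, 0.0248 and 0.0750. WT varied most among its own libraries and overlapped with both other groups, and all EDL libraries lay above all W/Wv libraries. With no filter, the limma change was -0.41 in W/Wv against WT (adjusted p = 0.032), -0.26 in EDL against WT (adjusted p = 0.14) and -0.15 in W/Wv against EDL (adjusted p = 0.61). On the recovered reads of all genes edgeR gave log2 changes of -2.96 (adjusted p = 0.0084), -1.38 (adjusted p = 0.078) and -1.59 (adjusted p = 0.35). Only 6 reads lie behind the W/Wv level, so its size is poorly known. The antisense transcript Hoxa11os, not analysed here, covers 800 exonic bases of Hoxa11 (35.0%).

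Over the 9 libraries the Hox profiles differed among themselves. Profiles of log2(FPKM + 1), each centred on its mean, were compared by the root mean square of their differences. Of 21 pairs, Hoxb3 and Hoxb5 were closest (0.0668), then Hoxb2 and Hoxb5 (0.104) and Hoxb4 and Hoxd4 (0.113), and Hoxb2 and Hoxd3 were furthest apart (0.478). The nested pairs were less close, Hoxd3 and Hoxd4 at 0.208 and Hoxb3 and Hoxb4 at 0.277. Among all tested genes the profile most like that of Hoxd3 was that of Mlxipl (0.0548), a glucose-responsive transcription factor, followed by Irak1 (0.0794), a kinase of Toll-like receptor signalling. For Hoxd4 they were Pik3c2g (0.0974), a lipid kinase, and 4930412O13Rik (0.111), and for Hoxb4 Dennd6b (0.0566) and 4930412O13Rik (0.0916). The nearest were Reep4 (0.0429) and Slc35f2 (0.0555) to Hoxb2, Zmym5 (0.0436) and Atxn2l (0.0475) to Hoxb3, 6030458C11Rik (0.0519) and Stx16 (0.0521) to Hoxb5, and Mtpap (0.106) and Clcn2 (0.115) to Hoxa4. The mean profile of the 7 Hox genes was most like those of Clk1 (0.0420), Rbm5 (0.0430), Dgkq (0.0432), Arfgap1 (0.0442) and Letmd1 (0.0463). Clk1 and Rbm5 act in splicing. These distances are descriptions over 9 libraries in 3 groups, where the groups set most of the shape.

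The partners of Hox proteins were read from lists of genes. Of 19 Hox cofactors and other TALE homeobox genes, 2 could be tested, Pbx3 and Irx2. Pbx3, whose protein binds DNA with Hox proteins, fell from 11.1 ± 0.316 FPKM in WT to 2.49 ± 0.193 in EDL and 2.39 ± 0.117 in W/Wv (SD, n = 3 each). Its changes were -1.79 (SE 0.07, limma adjusted p = 1.1e-09) and -1.83 (SE 0.07, limma adjusted p = 9.2e-10), opposite in sign to those of Hoxd3, Hoxd4 and Hoxb4, and in W/Wv against EDL it was -0.04 (interval -0.19 to 0.11, adjusted p = 0.76). Irx2 rose from 2.37 FPKM to 3.53 in EDL (limma adjusted p = 0.0026) and 4.43 in W/Wv (adjusted p = 0.0001). In each comparison with WT, where 75.3% (EDL) and 70.3% (W/Wv) of all tested genes passed, 1 of the 2 was thus higher and 1 lower. Their medians of -0.68 in EDL and -0.57 in W/Wv lie between 2 opposite changes and describe neither gene.

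Of 55 Polycomb and Trithorax genes, 7 could be tested. In EDL against WT 3 were higher and 0 lower, with a median of 0.24; in W/Wv against WT 2 were higher and 0 lower, with a median of 0.08; and none passed in W/Wv against EDL, with a median of -0.05. Over all tested genes 75.3% passed in EDL and 70.3% in W/Wv against WT, with medians of 0.05 and 0.02, and 14% passed between the models. The list had a smaller share of calls against WT, but only 7 of its genes were tested. Cbx2 and Kmt2d lay near the threshold in EDL against WT (limma adjusted p = 0.056 each). In W/Wv against WT Kmt2d had an adjusted p of 0.074 and Cbx2 one of 0.54. Pcgf6, a Polycomb subunit, rose in EDL by 0.50 (limma adjusted p = 0.00019) and in W/Wv by 0.27 (adjusted p = 0.013). Kmt2b, a histone methyltransferase of the Trithorax group, rose by 0.38 (adjusted p = 0.004) and 0.43 (adjusted p = 0.0018). Wdr5, a subunit of the Trithorax-type methyltransferases that lay outside the 4 largest changes of EDL against WT and is named to complete the count, rose in EDL by 0.14 (limma adjusted p = 0.025).

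Of 29 retinoic acid signalling genes, 4 could be tested. In EDL against WT 2 were higher, 1 lower and 1 did not pass (median 0.25), in W/Wv against WT 2 were higher and 2 lower (median 0.11), and none passed in W/Wv against EDL (median -0.16). Calls over all tested genes were 75.3% in EDL and 70.3% in W/Wv against WT, and 14% between the models. Rara, a retinoic acid receptor, rose from 7.83 ± 0.470 FPKM in WT to 11.8 ± 0.240 in EDL (limma adjusted p = 5e-05) and 12.1 ± 1.33 in W/Wv (adjusted p = 3.7e-05). Fabp5, a fatty acid carrier that can also bring retinoic acid to the nucleus, fell from 12.8 ± 0.737 FPKM to 3.71 ± 0.611 (limma adjusted p = 7.4e-07) and 3.65 ± 0.823 (adjusted p = 6.8e-07). Lcn5, a secreted protein that binds retinoic acid, had 702 ± 791 FPKM in WT, with library 3 far above the others, and 9752 ± 169 in EDL and 8035 ± 1270 in W/Wv (limma adjusted p = 0.0016 and 0.0025 against WT). Lrat, which esterifies retinol, fell in W/Wv against WT by 0.34 (limma adjusted p = 0.012).

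Of 87 other homeobox genes, 6 could be tested. Against WT 3 were higher and 2 lower in EDL (median 0.18), and 3 higher and 3 lower in W/Wv (median 0.14), where 75.3% and 70.3% of all tested genes passed. Pax2, which builds the duct that forms the epididymis, rose from 8.16 ± 0.133 FPKM to 24.4 ± 0.808 in EDL (limma adjusted p = 5.9e-09) and 23.2 ± 2.42 in W/Wv (adjusted p = 8.5e-09). Hopx, an atypical homeodomain protein that does not bind DNA, was also higher in both, and Zhx1 was lower in both. Prrx1, a gene of mesenchyme with 45.7 ± 0.402 FPKM in WT, fell to 14.7 ± 0.930 FPKM in EDL and to 20.1 ± 0.834 in W/Wv (limma adjusted p = 4.1e-10 and 5.9e-09). It was the 1 gene of the 6 tested that passed in W/Wv against EDL, higher by 0.43 (limma adjusted p = 0.00046). Of all tested genes 14% passed there, 6.95% as higher. Hoxd3, Hoxd4, Hoxb4 and Hoxb2 were lower in that comparison, and the median of the list was 0.02.

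Of 37 genes beside the Hox clusters and their noncoding transcripts, 5 could be tested. In EDL against WT 1 was higher and 3 lower (median -0.28), in W/Wv against WT 0 were higher and 4 lower (median -0.46), and in W/Wv against EDL 2 were lower (median -0.29). As lower, 35.9% of all tested genes passed in EDL against WT, 35% in W/Wv against WT and 7% in W/Wv against EDL. Hotairm1, a noncoding transcript of the HoxA cluster, rested on 211 reads in WT, 235 in EDL and 144 in W/Wv, with a change of 0.01 in EDL against WT (limma adjusted p = 0.89), and was lower in W/Wv than in WT by -0.46 (adjusted p = 0.00039) and than in EDL by -0.47 (adjusted p = 0.0035). Hnrnpa1, an RNA-binding protein gene beside HoxC, rose in EDL by 0.58 (limma adjusted p = 3e-05), had a change of 0.02 in W/Wv against WT (adjusted p = 0.87) and fell in W/Wv against EDL by 0.57 (adjusted p = 0.00074). Calcoco1, also beside HoxC, fell in EDL by 0.88 (limma adjusted p = 4.1e-07) and in W/Wv by 0.78 (adjusted p = 1.2e-06). Gm53 had the largest change of the list in W/Wv against WT, -0.879 (limma adjusted p = 4e-06), and changed by -0.59 in EDL (adjusted p = 0.00011). Tax1bp1 changed by -0.28 in EDL (limma adjusted p = 0.00046) and by -0.23 in W/Wv against WT (adjusted p = 0.002).

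Of 42 developmental signalling genes of the Wolffian duct and its mesenchyme, 3 could be tested, with 2 higher and 1 lower in each comparison with WT. Their medians were 0.87 in EDL and 0.79 in W/Wv, where 75.3% and 70.3% of all tested genes passed. None of the 3 passed in W/Wv against EDL (median -0.07), where 14% of all tested genes did. Tbx2, a T-box repressor, rose from 39.2 ± 0.777 FPKM to 72.4 ± 0.281 in EDL (limma adjusted p = 3.3e-08) and 68.7 ± 4.35 in W/Wv (adjusted p = 7.8e-08). Tbx3, its close relative, rose from 16.03 ± 0.953 FPKM to 31.8 ± 1.31 and 33.5 ± 2.24 (limma adjusted p = 7.8e-08 and 4.7e-08). Gata3, a zinc finger factor of the early duct, fell in EDL by 0.25 (limma adjusted p = 0.0081) and in W/Wv by 0.31 (adjusted p = 0.0019). Hoxd3 and Hoxd4 rose in EDL as Tbx2 and Tbx3 did, but W/Wv fell below EDL for the Hox pair by 0.43 and 0.58, whereas the changes of Tbx2 (-0.08, interval -0.19 to 0.04) and Tbx3 (0.07, interval -0.07 to 0.21) in W/Wv against EDL did not pass; the difference between these genes was not tested.

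Groups that do not overlap were counted as a second description. For 5 of 7 Hox genes EDL and WT did not overlap, where 77.4% of all tested genes did not. For 5 of 7 W/Wv and WT did not overlap, where 71.9% of all tested genes did not. For 5 of 7 W/Wv and EDL did not overlap, where 38.7% of all tested genes did not; these were Hoxb2, Hoxb4, Hoxb5, Hoxd3 and Hoxd4.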

How the data were processed

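Caput epididymis mRNA was sequenced in 9 libraries of 3 groups, prepared with a stranded kit per the labels' protocols, and groups and replicate numbers came from sample titles. TopHat2 2.1.1, Cufflinks 2.2.1 and mm10 appear per the submitters' processing notes, without their role or order. The deposited table gives FPKM values that its file headers call normalized; the normalization is not given in the sources used. It also gives a normalized count, deposited as a signal in which reads are divided by a factor of the library (0.922 to 1.25). Whole reads were recovered from it: 98.5% to 98.9% of values per library came out whole within 0.1 of a read.

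Changes were tested with limma 3.58.1 in R 4.3.3 (trended, robust) on log2(FPKM + 1), with a pseudocount of 1, which understates changes of low genes. Genes that reached 1 FPKM in 3 or more libraries entered, and all 9 libraries shared 1 fit. Benjamini-Hochberg adjustment ran over 2013 genes with a threshold of 0.05, so every adjusted p printed is of that kind unless an alternative is named. The scripts were tested on simulated data. Alternatives were another pseudocount, filter, scaling, fit or block, edgeR 4.0.16 and DESeq2 1.42.0 on recovered reads, and leaving out each library; edgeR on the reads of all genes was added after the data were seen. The members and lists were chosen with earlier results of these data known. 1 Hox gene of the table is not reported here. Named are the other Hox genes, at most 4 tested members of a list per comparison with the largest changes, the 2 genes most like each tested Hox gene and the 5 most like their mean. Coordinates, promoters and microRNAs are from RefSeq GRCm38.p6 and exons from GENCODE M21. Figures were drawn with matplotlib 3.10.9. Read numbers cover counting error only.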

Additional observations from a re-analysis of the deposited data

How the results depend on the processing

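Of 21 single-gene results, 7 Hox genes in 3 comparisons, 13 kept their call under all alternatives that gave a value, and none of 417 values reversed a called direction. Hoxb4, Hoxd3 and Hoxd4 kept theirs in all 3 comparisons, and Hoxb2 did in W/Wv against EDL. In EDL against WT the count of Hox genes called went from 5 to 3 with median-ratio scaling, with the replicate block, with edgeR and DESeq2 on recovered reads and with edgeR on the reads of all genes, and to 7 with quantile scaling. It was 3 without WT library 2, WT library 3 or EDL library 1, and 3 to 5 over all libraries left out; the genes lost were Hoxa4 and Hoxb5. The Hox count was 4 to 5 with a library left out in W/Wv against WT and in W/Wv against EDL. Over all genes, leaving out a library gave 1403 to 1510 calls in EDL against WT, 1293 to 1402 in W/Wv against WT and 172 to 388 in W/Wv against EDL, where 281 were called. The last count was 172 without EDL library 1 or EDL library 3, 184 without EDL library 2, 178 without W/Wv library 1, 219 with the block and 425 in a fit of the 2 groups only. There edgeR on recovered reads called 210 genes higher and 127 lower, against 140 and 141. Quantile scaling moved the median change of all genes against WT to 0.12 in EDL and 0.11 in W/Wv, and Hoxb2 and Hoxb3 then passed as higher in EDL (adjusted p = 0.0014 and 0.0048) and Hoxb3 in W/Wv (0.043). Without WT library 1, Hoxb3 also passed in EDL (0.031). Hoxb5 passed as lower in W/Wv against EDL in the fit of the 2 groups and without WT library 3. Deviations of same-numbered libraries correlated at -0.34 to 0.08 over 9 pairs, so same-numbered libraries did not deviate together. These deviations were centred within groups of 3 libraries and cannot exclude a shared batch, so pairing by replicate number was not settled. The block moved no other count by over 1.5 times. Why these calls changed was not tested. Depth limits Hoxa11, with at most 33 reads in a library.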
